A study of Mus musculus with 5 samples.

Results

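The genes that encode collagen chains were followed across 5 Affymetrix arrays of mouse mammary epithelial cells. Members were all genes whose symbol in the platform annotation is Col, a number, the letter a and a number, on probe sets with a single symbol, and the probe set with the highest mean over the arrays stood for a gene. This gave 44 chains of 22180 genes, from 47 probe sets. The 2 knockout arrays came from conditional knockout mice, MMTV-Cre+/Mmp14(f/f), in which a Cre transgene acts on floxed Mmp14. The 3 arrays called wild type came from Mmp14(f/f) littermates, so both groups carry the floxed alleles and the groups differ in Cre as well as in Mmp14. All mice were congenic FVB/NJ and 4 weeks old. The MMTV promoter drives Cre mainly in mammary epithelium, and whether other cells on these arrays had lost Mmp14 was not measured. No group carries Cre without the floxed alleles. Inguinal gland tissue free of lymph node gave the cells, which were separated from stroma by centrifugation after collagenase, which itself cuts collagen. Values are log2 signals per probe set, where equal ratios of signal are equal steps. Signals of different probe sets cannot be compared as RNA amounts, and no detection calls were used.

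Collagens are matrix proteins built of chains that wind into a triple helix. Fibrillar collagens form the banded fibres of stroma, type IV chains form the sheet of the basement membrane under the epithelium, FACIT collagens sit on fibre surfaces, type VI chains make beaded microfibrils, and transmembrane collagens anchor cells. MMP14 is a membrane-bound protease that cleaves fibrillar collagen at the cell surface, and in the mammary gland collagen surrounds the growing ducts. Fibroblasts make most fibrillar and type VI collagen, while epithelial, endothelial and perivascular cells contribute basement membrane chains.

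The arrays had medians of 4.24 to 4.29 over all 41345 probe sets. Luminal keratin Krt8 read 11.34 to 11.48 and the epithelial adhesion gene Epcam 9.98 to 10.10. Markers of stroma were also bright, with the fibroblast proteoglycan Dcn at 10.21 to 10.71 and Postn, periostin, at 9.59 to 10.35. Of the fibroblast markers, 8 of 13 lay above the 75th percentile of mean signal, as did 7 of 10 luminal markers. Because the RNA is from a mixture, fewer cells of a type and less RNA per cell cannot be told apart. Mmp14 itself read 7.98 and 7.28 on the knockout arrays and 8.15, 8.67 and 7.75 on the wild-type arrays. Its difference was -0.56 ± 0.39 (SE; limma adjusted p = 0.919), and the groups overlapped. It was lower in the knockout within both runs of consecutive array numbers, with differences of -0.43 and -0.46, and the difference ran from -0.91 without knockout 1 to -0.21 without knockout 2. Whether its probes lie in the deleted part of the gene was not known here, so these values do not settle the labels.

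No collagen chain passed limma's test between the genotypes. At an adjusted p of 0.05, 0 of 44 chains passed, against 0 of 22180 genes (0%), and at an unadjusted p of 0.05 again 0 of 44 passed, against 1.3% of all genes. The smallest unadjusted p among the chains was 0.147, for Col6a6. Means were higher in the knockout for 20 chains, lower for 22 and identical for 2. The median difference was -0.0034, against 0 over all genes, and the quartiles were -0.04 and 0.04, against -0.06 and 0.05 for all genes. Differences ran from -0.39 for Col6a3 to 0.33 for Col17a1, and none of the 44 reached 1.5-fold. The groups were free of overlap for a single chain, Col6a4, which was lower (1 of 44, against 2.8% of all genes), and for 0 chains that were higher (against 2.63%). With knockout 1 left out, 3 chains passed (Col4a4 lower, Col6a5 and Col26a1 higher), 6.82% of the chains against 7.92% of all genes. With knockout 2 left out, 2 passed (Col6a5 and Col26a1, both lower), 4.55% against 3.76%. In each of these the lone knockout array is assumed to vary like the wild type, whose values for these chains were equal or nearly so. The intervals of the bright chains were wide. The 95% interval reached from -0.53 to 1.11 for Col3a1 and from -0.72 to 1.13 for Col6a1.

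**Figure D1:**
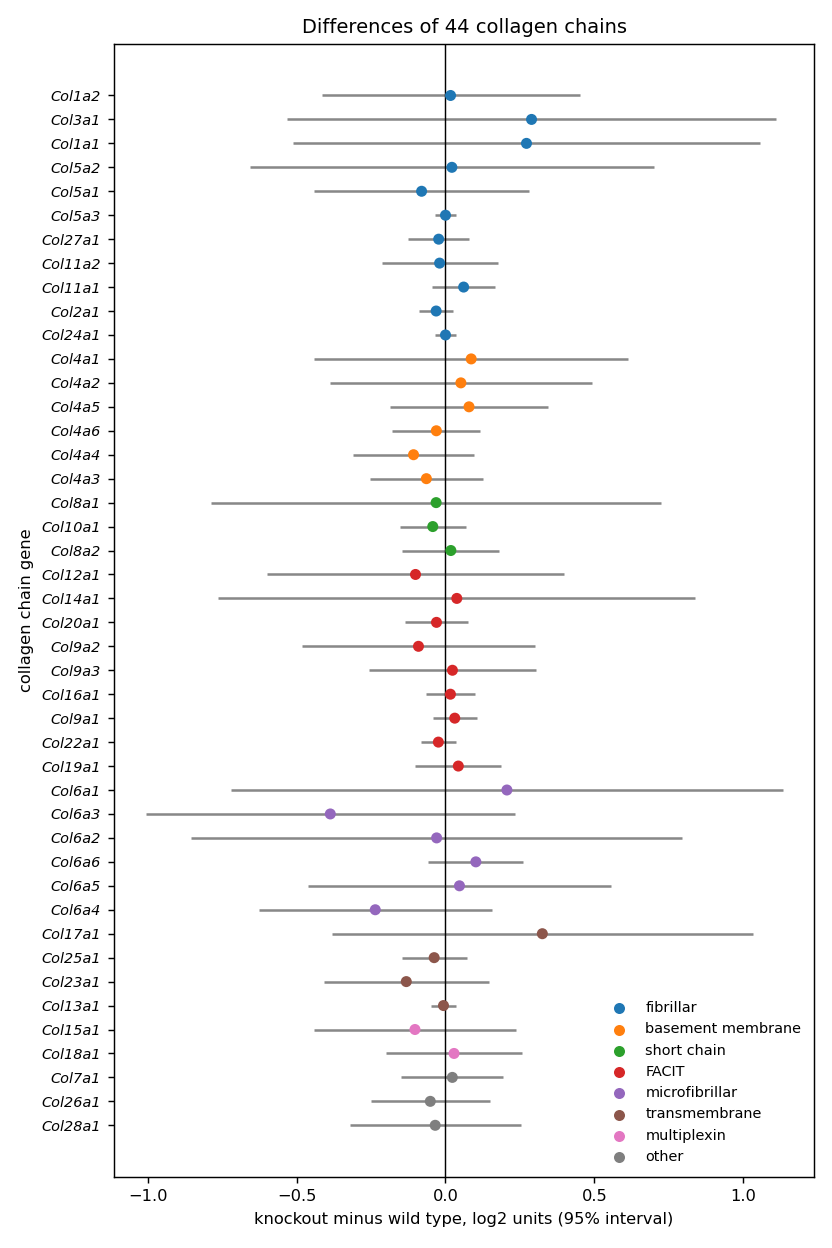
Difference of each of the 44 collagen chains in log2 units (x axis, knockout minus wild type; points, limma estimates; bars, 95% intervals; n = 2 knockout and 3 wild-type arrays), with chains in rows, coloured by class. Every interval includes 0, and the narrow intervals of chains such as Col24a1 and Col5a3 belong to probe sets with equal values on all arrays.

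Equal values limit what many chains can show. Of the 44 chains, 31 had the same value on at least 2 arrays, a share of 70.5% against 68.8% of all genes. Col24a1 and Col5a3 had the same value on all 5 arrays, 3.44 and 5.24. Signals were under the 40th percentile of genes, a chosen cut, for 11 chains. Without detection calls, expression of these chains cannot be told from background, and the cut does not mark where background ends. The 9 brightest chains, those above the 75th percentile of mean signal, end with Col14a1 at 78.3, and the next below are Col6a2 at 74.9 and Col17a1 at 74.6.

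The fibrillar chains with the highest signals were Col1a1 and Col1a2, which together form type I collagen, and Col3a1, the chain of type III collagen. Col1a1 read 8.13 and 8.68 on the knockout arrays and 7.87, 8.47 and 8.05 on the wild-type arrays. Col3a1 read 8.74 and 9.25 against 8.54, 9.10 and 8.47. Col1a2 read 10.51 and 10.87 against 10.62, 10.83 and 10.57. For all 3 genes the highest array was knockout 2 and the next was wild type 2, so the groups overlapped. The knockout means lay 0.27 ± 0.28 (SE) higher for Col1a1, 0.29 ± 0.29 for Col3a1 and 0.02 ± 0.15 for Col1a2. Without knockout 2 they were -0.0036, 0.03 and -0.17, and without knockout 1 they were 0.55, 0.55 and 0.20. A second probe set of Col1a2 gave 7.41 and 8.04 against 7.24, 7.85 and 7.40, a difference of 0.23, with the same array on top. The spread between arrays was up to 1.75-fold for Col1a1 and 1.72-fold for Col3a1.

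The 300 bases around the annotated starts of Col1a2 and Col3a1, the fibrillar chains with the highest mean signals, are shown. Whether these windows bear on the array values was not tested. The sequences are from RefSeq (GRCm38.p6), 250 bases before the start and 50 after it, 5′ to 3′. Capitals mark matches on either strand to any of 3 promoter motifs. The CCAAT box was searched as CCAAT. The GC box was searched as GGGCGG. The TATA box was searched as TATAAA. No window of Col1a1 was in the table.
Col1a2, chr6:4505368-4505667, plus strand: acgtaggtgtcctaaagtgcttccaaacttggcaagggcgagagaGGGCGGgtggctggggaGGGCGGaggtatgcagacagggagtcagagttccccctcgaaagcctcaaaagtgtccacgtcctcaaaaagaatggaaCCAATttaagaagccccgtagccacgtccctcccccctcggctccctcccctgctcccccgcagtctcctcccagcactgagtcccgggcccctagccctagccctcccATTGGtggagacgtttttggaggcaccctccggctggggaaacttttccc
Col3a1, chr1:45311288-45311587, plus strand: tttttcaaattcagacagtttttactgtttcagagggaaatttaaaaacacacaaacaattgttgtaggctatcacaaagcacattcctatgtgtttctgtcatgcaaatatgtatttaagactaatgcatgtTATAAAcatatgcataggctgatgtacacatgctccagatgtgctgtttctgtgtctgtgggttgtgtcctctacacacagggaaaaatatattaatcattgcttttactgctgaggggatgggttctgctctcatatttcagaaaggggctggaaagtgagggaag
The Col1a2 window held 2 CCAAT and 2 GC box matches and was 61% G and C. The Col3a1 window held 1 TATAAA match and was 37.7% G and C. A match is a string of letters and not a tested binding site.

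The type V chains, which co-assemble with type I collagen and limit fibre width, were dimmer. Col5a2, the neighbour of Col3a1 on chromosome 1, read 5.62 and 5.62 on the knockout arrays and 5.43, 6.01 and 5.36 on the wild-type arrays. Col5a1 read 5.44 and 5.47 against 5.44, 5.76 and 5.42. Wild type 2 was the highest array for both. Col5a2 had equal values on the knockout arrays, where Col3a1 had not. The cartilage chains Col11a1 and Col2a1 had the largest moderated t among the fibrillar chains, with small differences. Col11a1 read 4.09 and 4.19 against 4.09, 4.05 and 4.09 (0.06 ± 0.04, SE), and Col2a1 read 3.99 and 3.94 against 4.01, 3.99 and 3.99 (-0.03 ± 0.02). Their partner Col11a2 read 4.26 and 4.43 against 4.30, 4.40 and 4.40. Col27a1 was between 4.57 and 4.66 on every array. Over the 11 fibrillar chains the median difference was 0.00, with 5 means higher, 4 lower and 2 equal.

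**Figure D2:**
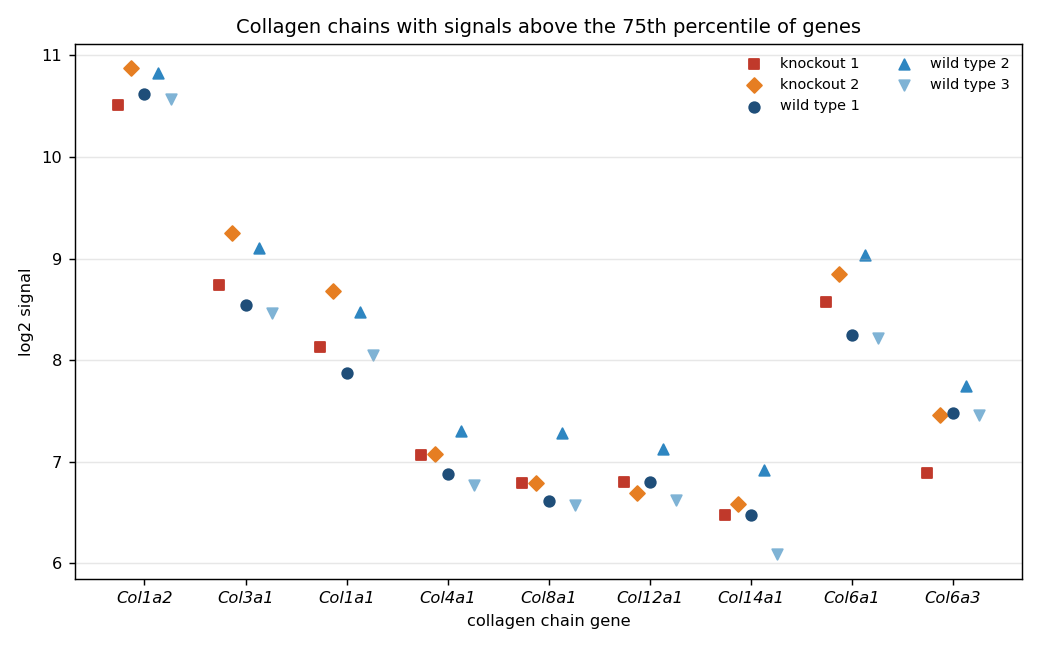
Log2 signal (y axis) of the 9 collagen chains above the 75th percentile of mean signal (x axis), with a point per array, squares and diamonds for knockout and circles and triangles for wild type. Wild type 2 is the highest wild-type array for every chain, and knockout 2 stands above it for Col1a2, Col3a1 and Col1a1.

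Wild type 2 was also the highest array for the main pair of type IV chains. Col4a1 and Col4a2 encode the chains found in nearly every basement membrane, and they are transcribed in opposite directions from a shared region on chromosome 8. Col4a1 read 7.07 and 7.07 on the knockout arrays and 6.88, 7.30 and 6.77 on the wild-type arrays. Col4a2 read 5.59 and 5.72 against 5.58, 5.84 and 5.40. Both genes were highest in wild type 2 and lowest in wild type 3, with the knockout arrays between. Differences were 0.09 ± 0.19 (SE) for Col4a1 and 0.05 ± 0.15 for Col4a2, with 95% intervals from -0.44 to 0.62 and from -0.39 to 0.49.

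The windows of both genes are printed because these windows overlap. The pair followed the same array order, but Col6a1 and Col6a2 followed that order too, so it was not particular to this pair. Whether the shared region plays a part in the order was not tested. The annotated starts lie 21 bases apart on opposite strands, and the windows share 78 bases.
Col4a1, chr8:11312777-11313076, minus strand: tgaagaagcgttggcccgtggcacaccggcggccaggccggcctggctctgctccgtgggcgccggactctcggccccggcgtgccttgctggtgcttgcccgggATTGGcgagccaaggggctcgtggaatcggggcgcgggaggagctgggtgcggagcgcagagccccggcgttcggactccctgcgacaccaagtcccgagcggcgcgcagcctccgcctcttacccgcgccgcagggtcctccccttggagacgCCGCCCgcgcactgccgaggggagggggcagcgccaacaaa
Col4a2, chr8:11312555-11312854, plus strand: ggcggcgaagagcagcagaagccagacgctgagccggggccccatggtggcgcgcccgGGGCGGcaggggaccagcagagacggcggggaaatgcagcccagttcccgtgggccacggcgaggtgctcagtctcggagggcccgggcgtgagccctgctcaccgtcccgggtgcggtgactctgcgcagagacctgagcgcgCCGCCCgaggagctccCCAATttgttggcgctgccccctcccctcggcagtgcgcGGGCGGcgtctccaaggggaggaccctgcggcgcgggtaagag
Both windows were rich in G and C, at 74% and 73.7%, and neither held TATAAA. Col4a1 held 1 GC box and 1 CCAAT match and Col4a2 held 3 and 1. Over the 38 windows of the 35 collagen genes found in the table, 60.5% held GGGCGG, against 35.7% of all 32851 windows. CCAAT was in 34.2% against 37.4%, and TATAAA in 13.2% against 13.6%. The G and C content of all windows was not compared, so the GGGCGG share is not read as a trait of collagen promoters. Some collagen windows also overlap, and the GC box of Col4a1 lies in the shared bases and is counted for Col4a2 too.

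The other type IV chains are found in fewer basement membranes, and they did not share the array order of Col4a1 and Col4a2. Col4a5 read 5.03 and 5.03 on the knockout arrays against 4.80, 5.04 and 5.03. Its neighbour Col4a6 read 4.96 and 4.96 against 4.93, 4.96 and 5.07. The neighbours Col4a3 and Col4a4 lay under the 40th percentile. Col4a3 read 2.94 and 3.13 against 3.09, 3.09 and 3.12, and Col4a4 read 3.54 and 3.33 against 3.54, 3.55 and 3.54. Each of this last pair had a different knockout array as the lowest. Of the 6 type IV chains, 3 had higher and 3 lower means, with a median of 0.01.

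The short-chain network collagens form sheets in vessel walls and growth plates. Col8a1, an endothelial and smooth muscle chain, read 6.80 and 6.80 on the knockout arrays and 6.62, 7.29 and 6.58 on the wild-type arrays. Its difference was -0.03 ± 0.27 (SE), and wild type 2 stood 1.63-fold above wild type 3, the widest gap for this gene. Col8a2, its partner, read 3.65 and 3.65 against 3.54, 3.71 and 3.65. Col10a1, the chain of hypertrophic cartilage, read 4.69 and 4.61 against 4.69, 4.65 and 4.73.

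Type VI collagen held the chain with the largest difference, Col6a3, and its chains did not share a direction. Col6a1, Col6a2 and Col6a3 encode the chains that assemble into the common microfibril. Col6a1 read 8.57 and 8.84 on the knockout arrays and 8.25, 9.04 and 8.22 on the wild-type arrays. Its neighbour Col6a2 read 6.14 and 6.31 against 6.12, 6.73 and 5.91. In both, wild type 2 was the highest array and knockout 2 the next. Col6a3 read 6.89 and 7.46 against 7.48, 7.74 and 7.46. Knockout 1 was thus the lowest array for Col6a3, while knockout 2 equalled wild type 3. The differences were 0.21 ± 0.32 (SE) for Col6a1, -0.03 ± 0.29 for Col6a2 and -0.39 ± 0.22 for Col6a3 (limma adjusted p = 0.926, 1 and 0.919). The Col6a1 difference ran from 0.06 without wild type 3 to 0.48 without wild type 2. A second probe set of Col6a1 differed by 0.11, on values of 7.24 and 7.50 against 7.25, 7.52 and 7.03. The difference of Col6a3 rested on knockout 1, and without that array it was -0.10.

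The remaining type VI genes form a cluster on chromosome 9 and encode alternative chains of the microfibril. All 3 lay under the 40th percentile of signal. Col6a4, the chain without overlap, read 2.87 and 2.88 on the knockout arrays and 3.33, 2.92 and 3.08 on the wild-type arrays. Its difference was -0.24 ± 0.14 (SE; limma adjusted p = 0.919). The gap to wild type 2 was small beside the spread of the wild-type arrays. Its neighbour Col6a5 read 3.36 and 3.90 against 3.58 on all 3 wild-type arrays, so the knockout arrays lay on either side. Col6a6 read 3.81 and 3.89 against 3.76, 3.67 and 3.81, a difference of 0.10 ± 0.06.

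FACIT collagens decorate fibrils, and Col12a1 and Col14a1 are their common forms in connective tissue. Col12a1 read 6.80 and 6.69 on the knockout arrays and 6.80, 7.12 and 6.62 on the wild-type arrays. Col14a1 read 6.48 and 6.59 against 6.48, 6.92 and 6.09. Wild type 2 was again highest and wild type 3 lowest for both, with a gap of 1.78-fold for Col14a1. Differences were -0.10 ± 0.17 (SE) and 0.04 ± 0.28. The type IX chains, a cartilage trimer, did not follow this order. Col9a2 read 4.72 and 5.07 against 4.98, 4.88 and 5.09, Col9a3 read 4.81 and 4.84 against 4.65, 4.81 and 4.94, and Col9a1 read 4.35 and 4.32 against 4.32, 4.27 and 4.32. Col19a1, next to Col9a1, read 2.81 and 2.95 against 2.82, 2.82 and 2.87. The chains Col16a1, Col20a1 and Col22a1 are minor members of the class. Col20a1 read 4.999 on 4 of the arrays and 5.09 on wild type 2, and Col22a1 read 3.28 on 4 and 3.23 on knockout 2. Col16a1 read 4.45 and 4.50 against 4.47, 4.47 and 4.42. The 9 FACIT genes had a median difference of 0.02.

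Among transmembrane collagens, Col17a1 had the highest mean signal and the largest difference. It encodes the hemidesmosome collagen that fixes basal epithelial cells to the basement membrane. It read 6.75 and 6.09 on the knockout arrays and 6.09, 6.27 and 5.92 on the wild-type arrays. Knockout 1 was the highest array and knockout 2 lay among the wild type, giving 0.33 ± 0.25 (SE; limma adjusted p = 0.919). Without knockout 1 the difference was -0.0040. Col23a1 read 4.49 and 4.70 against 4.79, 4.62 and 4.78, Col25a1 was between 4.93 and 5.03 on every array and Col13a1 between 3.37 and 3.39.

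The other classes held 5 genes. The multiplexins Col15a1 and Col18a1 bridge basement membranes to stroma, and Col18a1 gives rise to endostatin. Col15a1 read 5.32 on 4 of the arrays and 5.63 on wild type 2, and Col18a1 read 4.85 and 4.83 against 4.75, 4.95 and 4.74. Wild type 2 was the highest array for both. Col7a1, the anchoring fibril chain of skin, read 5.03 and 5.03 against 5.03, 5.08 and 4.91. Col26a1 and Col28a1 read 4.12 and 4.32 against 4.27 on all wild-type arrays, and 2.67 and 2.96 against 2.83, 2.83 and 2.89.

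**Figure D3:**
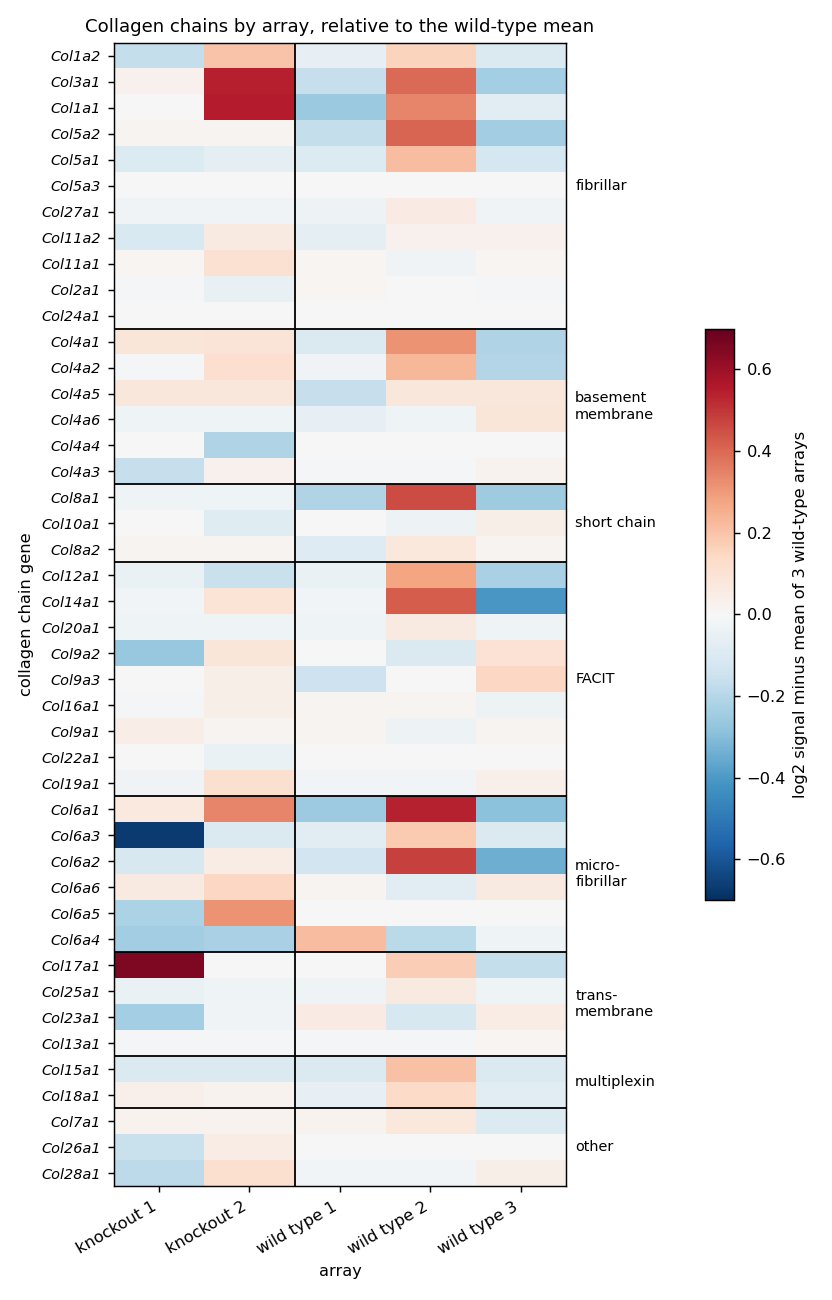
Log2 signal of each of the 44 collagen chains (rows, grouped by class and ordered by mean signal) on each array (columns) minus the mean of the 3 wild-type arrays, red above and blue below. The red column of wild type 2 runs through most classes, while the knockout 1 cells of Col17a1 and Col6a3 are the most extreme of that array.

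Many chains shared an order of arrays that did not follow the genotypes. Wild type 2 alone was the highest array for 19 of 44 chains, 43.2% against 15.4% of all genes, and for 6 of the 9 brightest. Knockout 2 was highest for 12 chains (27.3% against 21.4% of all genes) and for the other 3 of the brightest. Wild type 1 was highest for 3, wild type 3 for 5 and knockout 1 for 2. Within the wild type, all 9 of the brightest chains were highest in wild type 2, as were 24.4% of all genes and 39.2% of genes with 5 different values. Averaged over the 9, the deviation from the wild-type mean was 0.34 on wild type 2 and 0.17 on knockout 2, against -0.08 on knockout 1, -0.13 on wild type 1 and -0.21 on wild type 3. A knockout array thus lay on each side of the wild-type mean.

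Marker lists of several cell types also differed between arrays, and not all followed the order of these chains. The mean of the 13 fibroblast markers was 7.07 and 7.08 on the knockout arrays and 6.98, 7.29 and 6.74 on the wild-type arrays. Relative to the wild-type mean it was highest in wild type 2, at 0.29, and lowest in wild type 3, at -0.26. This list ranked the arrays in the same order as the mean of the 9 brightest chains. Knockout 1, however, stood at 0.06 for the list and at -0.08 for those chains. The 9 pericyte markers had means of 5.44 and 5.93 against 5.53, 5.93 and 5.58, and the 10 endothelial markers 6.16 and 6.85 against 6.54, 6.78 and 6.42. Both lists were highest on knockout 2 and wild type 2 and lowest on knockout 1. The 8 measured basal myoepithelial markers had means of 7.41 and 7.71 against 7.27, 7.71 and 7.33. Of these, 6 were higher on knockout 2 than on knockout 1, Myh11 most (8.49 on knockout 1 and 9.66 on knockout 2). Krt14 (9.29 and 9.16) and Trp63 (5.67 and 5.41) went the other way, so the mean does not stand for every marker. The 9 macrophage markers had means of 5.29 and 5.07 against 5.39, 5.53 and 5.07. Macrophage markers were thus highest in wild type 2 but low on knockout 2, at -0.26 relative to the wild-type mean. The 8 measured adipocyte markers stood at 0.01 on wild type 2, 0.04 on wild type 3 and 0.16 on knockout 2. The 6 measured Schwann cell markers stood at 0.10 on wild type 2 and 0.25 on knockout 2. The latter owed much to Cdh19, at 4.76 on knockout 2 against a wild-type mean of 3.60, and the median deviation there was 0.11. The 10 luminal markers varied less, from -0.09 to 0.10. Whether these cells account for the collagen levels was not tested. The fibroblast and endothelial lists differ on knockout 1, which stood at 0.06 relative to the wild-type mean for the first list and at -0.42 for the second.

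**Figure D4:**
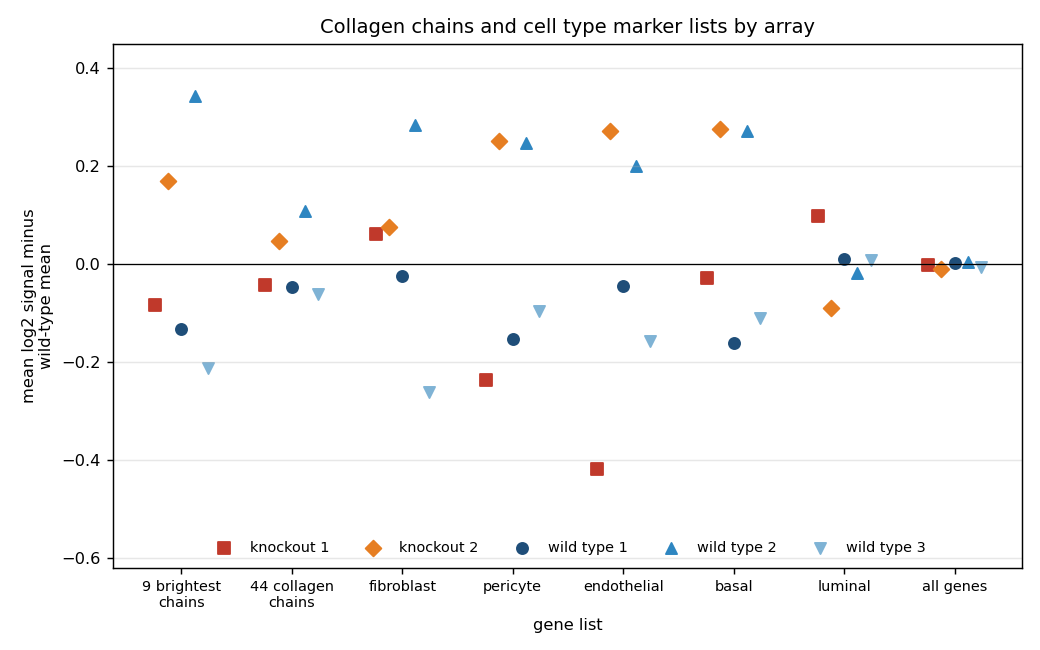
Mean log2 signal relative to the wild-type mean (y axis) for the 9 brightest collagen chains, all 44 chains, marker lists of 5 cell types and all 22180 genes (x axis), with a point per array. Wild type 2 is the highest array for both collagen groups and for fibroblast markers, at 0.34, 0.11 and 0.29, and all genes lie near 0 on each array.

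The array numbers in the labels form a pair of consecutive runs, with knockout 1, wild type 1 and wild type 2 in run 1 and knockout 2 and wild type 3 in run 2. The labels do not say what a run stands for. The 9 brightest chains had a median difference of -0.16 within run 1 and 0.30 within run 2. All but Col6a3 of these 9 were lower in the knockout within run 1 and higher within run 2. For the 44 chains this held for 21, or 47.7%, against 18.9% of all genes and 27.8% of the 6930 genes with 5 different values. Col3a1 differed by -0.09 within run 1 and by 0.78 within run 2, Col1a1 by -0.04 and 0.63 and Col14a1 by -0.22 and 0.50. Col17a1 and Col6a4 kept their sign, with 0.57 and 0.16 for the first and -0.26 and -0.20 for the second. Run 2 compares single arrays and has no replicate. For 8 of the 9 brightest chains the runs thus gave opposite signs, from the same array values as above. Wild type 2, their highest wild-type array, is in run 1, and run 2 sets knockout 2 against wild type 3.

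**Figure D5:**
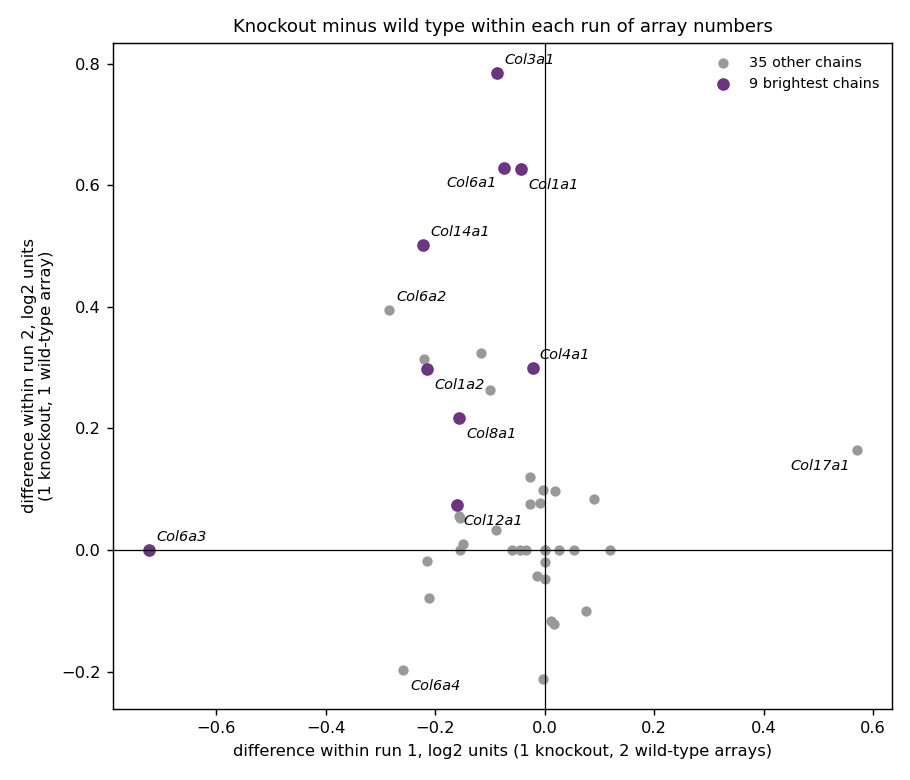
Difference between knockout and wild type within run 1 (x axis, 1 knockout and 2 wild-type arrays) and within run 2 (y axis, 1 array of each), in log2 units, a point per collagen chain, with the 9 brightest in purple. Of these 9, 8 lie at the upper left, lower within run 1 and higher within run 2, and Col6a3 lies on the zero line of run 2.

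Genes that build, bind or degrade collagen were read beside the chains. Of the 18 measured genes of collagen folding and modification in the endoplasmic reticulum, 10 had higher and 8 lower means, the median was 0.01 and 0 passed limma's test at the adjusted or the unadjusted threshold. P3h2, a prolyl 3-hydroxylase that acts on type IV collagen, read 7.93 and 7.23 on the knockout arrays against 8.23, 7.93 and 7.93 (-0.45 ± 0.26, SE). Plod2, which hydroxylates telopeptide lysines for crosslinks, read 6.57 and 6.53 against 6.57, 6.58 and 6.61. P3h3, a related prolyl 3-hydroxylase, read 5.42 and 5.59 against 5.23, 5.52 and 5.19. Of the 11 genes of procollagen processing and crosslinking, 5 were higher and 6 lower, with a median of -0.01. Pcolce, an enhancer of propeptide removal, read 7.48 and 7.93 against 7.27, 7.75 and 7.44. Its highest arrays were those of Col1a1, Col1a2 and Col3a1, knockout 2 and wild type 2. Adamts14, a propeptide protease, read 4.21 and 4.04 against 4.17, 4.29 and 4.17. Loxl3, a lysyl oxidase, read 4.88 on 4 of the arrays and 5.03 on wild type 2. Again 0 of the 11 passed limma's test at the adjusted or the unadjusted threshold.

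The 9 measured collagen receptors had a median of 0.06, with 7 means higher and 2 lower, and none passed limma's test at either threshold. Lair1, an inhibitory receptor of leukocytes, read 3.33 and 3.55 against 3.33 on all wild-type arrays. Itga1, the integrin chain that binds type IV collagen, read 4.83 and 4.92 against 4.83, 4.83 and 4.68. Itga11, a fibroblast integrin chain for type I collagen, read 4.15 and 4.21 against 4.21, 4.37 and 4.21. Each of these had a tie between a knockout and a wild-type array. Among 8 collagen-cleaving proteases, 4 means were higher and 4 lower, and 2 had groups without overlap, both higher (against 2.63% of all genes that were higher without overlap). Ctsk, the lysosomal collagenase cathepsin K, read 7.55 and 8.51 on the knockout arrays against 7.03, 7.52 and 6.88 on the wild-type arrays. Both knockout arrays lay above the wild type, knockout 1 by little, and the difference was 0.89 ± 0.39 (SE; limma adjusted p = 0.919). It was 0.28 within run 1 and 1.63 within run 2. Mmp13, an interstitial collagenase, also had no overlap, with 5.84 and 5.91 against 5.60, 5.55 and 5.77. It was the only gene of these 4 pathway lists at an unadjusted p below the threshold (0.0482), which 1.3% of all genes passed. Mmp2, a gelatinase that MMP14 activates, read 8.30 and 8.59 against 7.85, 8.41 and 7.70.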

How the data were processed

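Log2 signals per probe set of 2 knockout and 3 wild-type arrays were used as deposited by the authors. The submitters' processing notes list RMA and limma, with no version, and the labels name no library files. Of 41345 probe sets, 23521 had 1 symbol. Differences are knockout minus wild type, fitted two-sided without a covariate by limma 3.58.1 (lmFit, eBayes; R 4.3.3), and p-values were adjusted over 22180 genes by Benjamini-Hochberg, with a threshold of 0.05. SE is limma's moderated SE. Replicates are called biological, but nothing says that each array holds a single animal, so a p-value covers only the spread among the arrays. The fit was tested on simulated data drawn independently for each gene and array. These did not copy the tied values or the shifts that genes share on an array, so the test does not cover them. Members and lists were chosen with earlier results of these data known. Array values are given, per class, for the 4 brightest chains and the 2 with the largest moderated t, for chains without overlap, for neighbours and trimer partners, and for 3 genes per pathway list; other chains were added. The number of arrays limits the precision. Alternatives were other scalings, filters, probe set rules, variance models, blocks and leaving out each array.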

Additional observations from a re-analysis of the deposited data

How the results depend on the processing

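No chain passed under any alternative that kept all 5 arrays. Leaving out an array in turn moved the number of genes called (0 with all arrays) to between 0 and 1757 and that of chains to between 0 and 3, the highest without knockout 1 (835 genes and 2 chains without knockout 2). With the dimmest genes left out, class medians were 0.065 for basement membrane and -0.038 for transmembrane chains. With only genes of 5 different values, medians were 0.27 for fibrillar (3 chains left), 0.069 for basement membrane (2 left) and 0.10 for transmembrane chains (2 left). The FACIT value of -0.091 was that of Col9a2, the only chain of its class left. Both settings test fewer genes. The median of all chains was -0.044 within run 1 and 0.04 within run 2, that of microfibrillar chains -0.24 and 0.20, and of the other chains -0.15 and 0.07. FACIT chains were at -0.03 within run 1 and fibrillar chains at 0.06 within run 2. Leaving out arrays gave medians from -0.036 to 0.056 for basement membrane, -0.04 to 0.05 for short-chain, -0.024 to 0.042 for FACIT, -0.17 to 0.10 for microfibrillar, -0.03 to -0.0084 for transmembrane and -0.15 to 0.05 for other chains. Same-numbered arrays correlated at 0.245 and -0.0436 in their deviations. Differently numbered arrays were not set beside them, so these values cannot decide whether the arrays are paired. The main fit used no pairs. A replicate block, which leaves wild type 3 without a partner, called 0 genes and gave medians of -0.036 for basement membrane and -0.024 for FACIT chains. Under the block these chains changed sign: Col14a1 (-0.17), Col16a1 (-0.00022), Col18a1 (-0.0097), Col1a2 (-0.032), Col4a1 (-0.019), Col4a2 (-0.052), Col4a6 (0.012), Col5a2 (-0.10) and Col7a1 (-0.026). With run as a fixed block Col6a2 (0.0069) and Col8a1 (0.0041) did. Within run 1 the changes were Col10a1 (0.016), Col14a1 (-0.22), Col16a1 (-0.026), Col18a1 (-0.0037), Col19a1 (-0.0081), Col1a1 (-0.043), Col1a2 (-0.21), Col3a1 (-0.087), Col4a1 (-0.022), Col4a2 (-0.12), Col4a6 (0.012), Col5a2 (-0.10), Col6a1 (-0.074), Col6a5 (-0.22) and Col7a1 (-0.026), and within run 2 Col11a2 (0.032), Col12a1 (0.073), Col26a1 (0.052), Col28a1 (0.073), Col4a3 (0.0099), Col5a1 (0.057), Col6a2 (0.39), Col8a1 (0.22) and Col9a3 (-0.10). Single chains that changed sign when an array was left out ranged as follows: Col11a2 from -0.10 to 0.064, Col12a1 from -0.22 to 0.037, Col14a1 from -0.17 to 0.25, Col16a1 from -0.0090 to 0.042, Col17a1 from -0.0040 to 0.65, Col18a1 from -0.0097 to 0.10, Col19a1 from -0.025 to 0.11, Col1a1 from -0.0036 to 0.55, Col1a2 from -0.17 to 0.20, Col26a1 from -0.15 to 0.052, Col27a1 from -0.041 to 0.0062, Col28a1 from -0.18 to 0.11, Col4a1 from -0.019 to 0.24, Col4a2 from -0.052 to 0.17, Col4a3 from -0.16 to 0.032, Col4a5 from -0.00077 to 0.12, Col4a6 from -0.058 to 0.012, Col5a1 from -0.14 to 0.028, Col5a2 from -0.10 to 0.23, Col6a2 from -0.20 to 0.21, Col6a5 from -0.22 to 0.31, Col7a1 from -0.026 to 0.060, Col8a1 from -0.16 to 0.20, Col8a2 from -0.028 to 0.055, Col9a2 from -0.27 to 0.085 and Col9a3 from -0.050 to 0.095. The cause was not tested. Small numbers of arrays and tied values limit every chain, and dim chains cannot be told from background.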
